A study of Mus musculus with 12 samples.

Results

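The kinesin motor family was examined in lungs of mice that breathed hypoxic or normoxic air. Its members were the transcript clusters with 1 gene symbol beginning with Kif or Kifc and a digit, with the cluster of the highest mean over all 12 arrays taken for each gene, which gave 42 of the 22180 genes measured. Kinesins are motors that use ATP to move along microtubules or to take microtubule ends apart. Mitotic kinesins build the spindle, move chromosomes and cut the dividing cell apart, and their genes are expressed mainly in the late phases of the cell cycle. Transport kinesins carry vesicles, organelles and ciliary cargo in cells that need not divide, and a further set works in or at the cilium. Sustained hypoxia is known to thicken and remodel the walls of pulmonary vessels, with proliferation of vascular cells. By the study's account, arteries at 3 days of hypoxia are reportedly constricted and not yet remodeled. Dividing and carrying motors were contrasted here in whole lobes, so a difference cannot be assigned to vascular cells.

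All animals were C57BL/6J mice with no allele or drug named in the labels, male by the study's general methods, and their age is not given in the sources used here. In hypoxia, 6 mice breathed 10% oxygen at normal pressure for 3 days, and in normoxia 6 mice breathed 21% oxygen for 3 days. RNA of the left lobe of each mouse was hybridized to 1 whole-transcript array, and the authors' RMA levels are on a log2 scale, where a difference of 1 is a change of 2-fold. The number of mice limits the precision. The array medians lay between 5.89 and 5.95, and pairs of arrays correlated at 0.983 to 0.989, with no identical pair. Markers of lung tissue (Sftpc, Sftpb, Ager, Scgb1a1, Pecam1 and Cldn5) had mean levels of 9.20 to 13.37. Hypoxia was compared with normoxia by limma over all 41155 transcript clusters, with Benjamini-Hochberg adjustment and a threshold of 0.05. A lobe holds many cell types, and more cells of a type cannot be told apart from more RNA per cell.

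Of the 42 kinesin genes, 6 were higher in hypoxia by the test, 36 did not pass it and none fell. Over all genes, 3.90% rose and 2.14% fell by the same test. All 6 risers were among the 14 mitotic kinesins, namely Kif11, Kif2c, Kif23, Kif20b, Kif15 and Kif14, with log2 fold changes of 0.35 to 0.93. The mitotic kinesins had a median log2 fold change of 0.34 and the 17 transport kinesins one of -0.01, beside -0.01 over all genes. In 5 of the 14 mitotic kinesins every hypoxic mouse lay above every normoxic mouse, which held for 3.55% of all genes. None of the 42 was separated in the other direction (2.15% of all genes). Among the 28 members outside the mitotic list, none passed in limma or in an analysis of variance, and 6 had an unadjusted p under 0.05 (21.4%, beside 19.5% of all genes).

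Kif11 encodes the motor that slides antiparallel microtubules apart and so keeps the spindle bipolar. Its level in normoxia ranged from 5.26 to 6.00 with a median of 5.77, and in hypoxia from 6.40 to 6.93 with a median of 6.66. The groups did not overlap, with normoxia replicate 4 lowest and hypoxia replicate 2 highest of all mice. The log2 fold change was 0.93 (standard error 0.14, limma adjusted p=0.00154), the largest of the family. Kif15, which assists Kif11 in holding the spindle poles apart, ranged from 4.66 to 5.41 in normoxia (median 5.24) and from 5.56 to 5.91 in hypoxia (median 5.73). It also separated the groups, with a log2 fold change of 0.61 (standard error 0.12, limma adjusted p=0.00939). Its lowest mouse was again normoxia replicate 4.

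Kif2c does not walk along microtubules but takes their ends apart at the centromere, which corrects faulty attachments of chromosomes. Its levels were 4.28 to 4.81 in normoxia (median 4.50) and 4.99 to 5.38 in hypoxia (median 5.14). No hypoxic mouse fell within the normoxic range, and the log2 fold change was 0.67 (standard error 0.10, limma adjusted p=0.0022).

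The remaining risers act when the cell divides into its daughters. Kif23, the motor subunit of the centralspindlin complex at the spindle midzone, ranged from 5.66 to 6.19 in normoxia (median 5.95) and from 6.20 to 6.91 in hypoxia (median 6.69). The groups were separated by a narrow gap, since hypoxia replicate 1 lay just above the highest normoxic mouse, and the log2 fold change was 0.74 (standard error 0.12, limma adjusted p=0.0039). Kif20b, a midzone motor needed for the completion of cytokinesis, ranged from 5.52 to 5.95 in normoxia (median 5.70) and from 6.16 to 6.70 in hypoxia (median 6.24). Its groups did not overlap, and its log2 fold change was 0.66 (standard error 0.11, limma adjusted p=0.00439). Kif14, which recruits citron kinase to the midbody, ranged from 4.96 to 5.36 in normoxia (median 5.10) and from 5.32 to 5.71 in hypoxia (median 5.47). Here 5 of the 6 hypoxic mice lay above the highest normoxic mouse, and the log2 fold change was 0.35 (standard error 0.08, limma adjusted p=0.0347). The call of Kif14 was lost without each of normoxia replicates 2, 3, 4 and 5 and hypoxia replicates 1, 3, 5 and 6, with log2 fold changes of 0.30 to 0.39 over the 12 such runs, and with the replicate number as a block (adjusted p=0.0933).

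**Figure D1:**
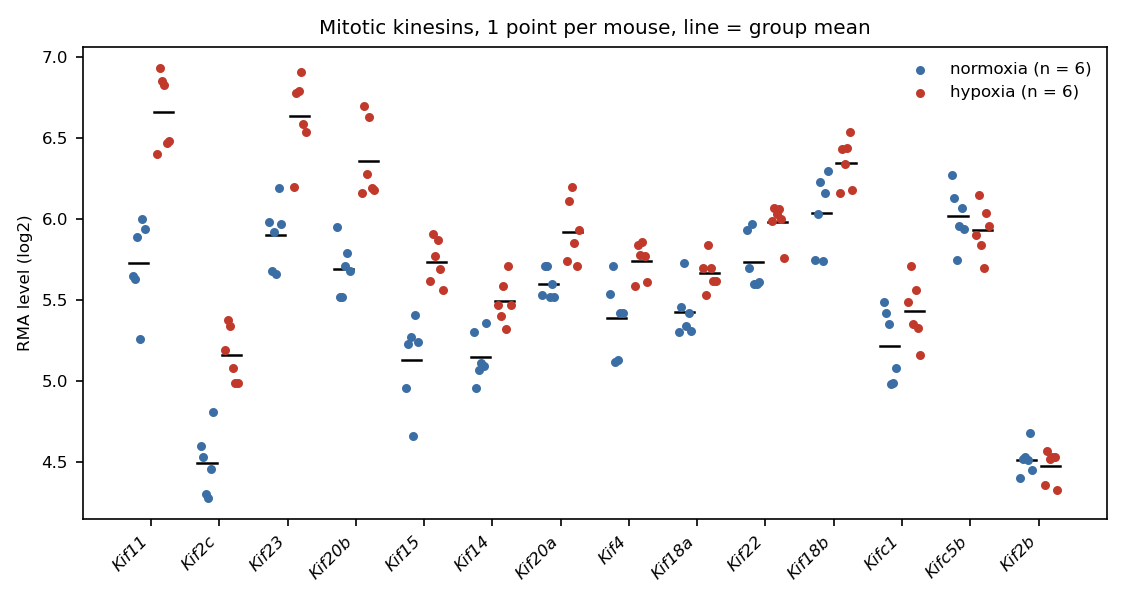
RMA levels (log2) of the 14 mitotic kinesins, with 1 point for each mouse, normoxia in blue and hypoxia in red (n=6 each), and a line at each group mean. Levels are compared within a gene and not between genes. The points of Kif11, Kif2c, Kif23, Kif20b and Kif15 do not overlap between the groups, while those of Kif2b and Kifc5b overlap widely.

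The other 8 mitotic kinesins did not pass the test, and for 5 of them the 95% interval of the log2 fold change lay above 0. An unadjusted limma p under 0.05 was found for 78.6% of the 14 mitotic kinesins, beside 19.5% of all genes. Kif20a, which brings the chromosomal passenger complex to the midzone, was closest to passing. Its levels were 5.52 to 5.71 in normoxia (median 5.57) and 5.71 to 6.20 in hypoxia (median 5.89). Hypoxia replicate 5 alone touched the normoxic range, at its upper end, and the log2 fold change of 0.33 (SE 0.09) had an adjusted p of 0.0573 from limma. It passed without hypoxia replicate 1 (0.0471), without hypoxia replicate 5 (0.0389) and when the arrays were brought to a common distribution once more (0.042) or centred on their medians (0.0441). Kif4, a chromokinesin that limits microtubule growth at the midzone, had a log2 fold change of 0.35 (95% interval 0.13 to 0.57, limma adjusted p=0.0751), which passed without normoxia replicate 2 (0.42, adjusted p=0.028). Every hypoxic mouse lay above the normoxic median of Kif4, and 4 lay above the highest normoxic mouse.

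Kif18b, which shortens astral microtubules, had a log2 fold change of 0.31 (95% interval 0.07 to 0.55). Kif22, which pushes chromosome arms away from the poles, had one of 0.25 (0.07 to 0.43) and Kif18a, which damps the swinging of chromosomes at the metaphase plate, one of 0.24 (0.07 to 0.41). Kif18a passed without normoxia replicate 3 (0.30, limma adjusted p=0.0223), the highest normoxic mouse for this gene. For each of these 3 genes all 6 hypoxic mice lay above the normoxic median.

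For the last 3 mitotic kinesins the 95% interval spanned 0. Kifc1, a minus-end motor that gathers spindle poles, had levels of 4.98 to 5.49 in normoxia and 5.16 to 5.71 in hypoxia, a log2 fold change of 0.21 (95% interval -0.03 to 0.46). Kifc5b, its close copy in the mouse genome, had one of -0.09 (-0.29 to 0.12). Probes of such near-identical genes may read both transcripts, so the assignment of signal to Kifc1 or Kifc5b is uncertain. Kif2b, a relative of Kif2c, had a log2 fold change of -0.04 (-0.18 to 0.10), with a hypoxic range of 4.33 to 4.57 inside and just below the normoxic range of 4.40 to 4.68.

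**Figure D2:**
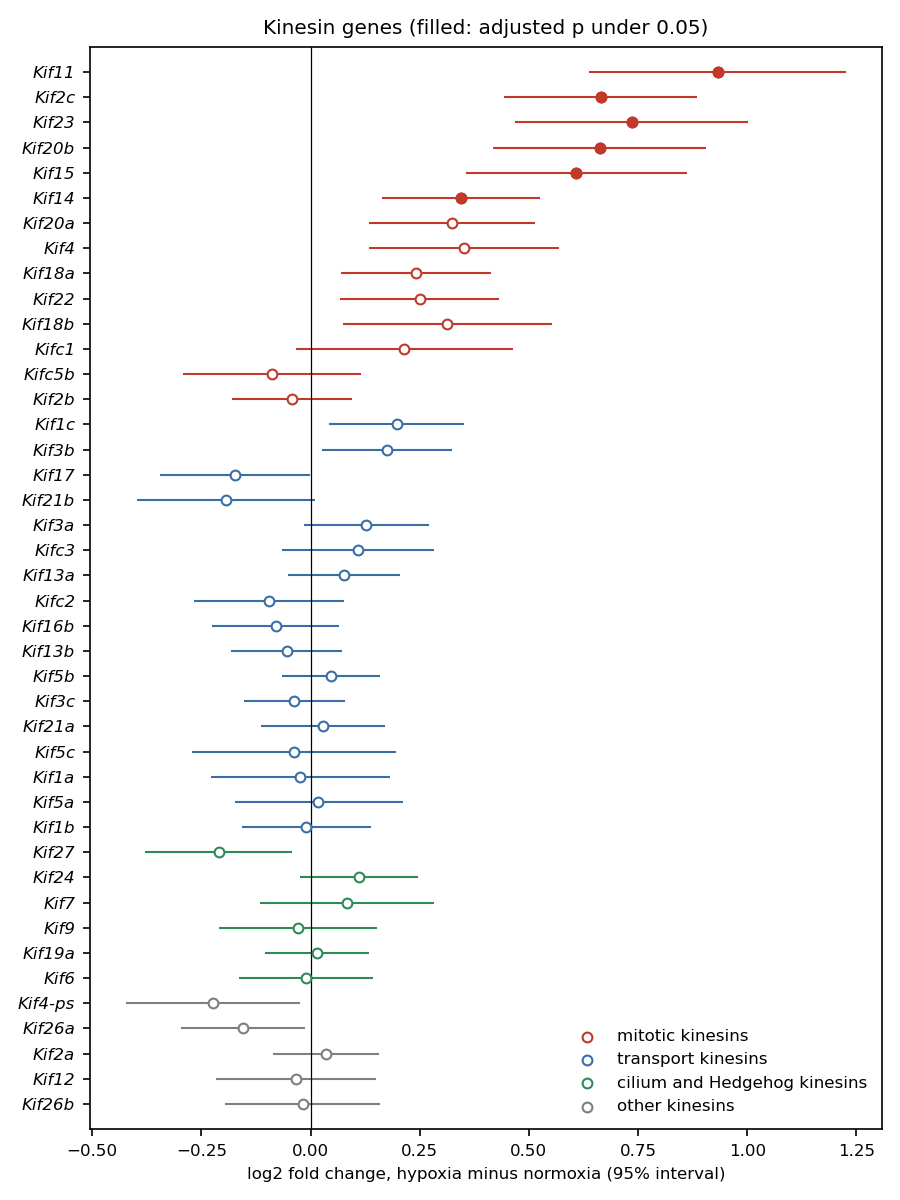
Log2 fold change (hypoxia minus normoxia) of the 42 kinesin genes with 95% intervals from limma, coloured by role and ordered by p within each role. Filled points passed an adjusted p of 0.05, and all 6 of them are mitotic kinesins with log2 fold changes of 0.35 to 0.93, while the 17 transport kinesins lie between -0.19 and 0.20.

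Genes of the late cell cycle often carry the cell cycle homology region near their start site, a short element bound by the DREAM and MuvB complexes, together with CCAAT boxes, which bind NF-Y. The letters TTTGAA for the first and CCAAT for the second were searched on both strands from 250 bases before to 50 bases after the start site of each RefSeq promoter (GRCm38.p6). Neighbouring matches of the 2 motifs can share at most 1 letter. Promoters were matched by symbol for 33 of the 42 members. TTTGAA was found in 11 of 13 mitotic kinesin genes and in all 6 risers, in 1 of 11 transport kinesin genes and in 17.9% of all 32851 promoters. CCAAT was found in 9 of the 13 mitotic and 3 of the 11 transport kinesin genes, in 3 of the 6 risers and in 37.4% of all promoters. Both motifs together were found in 8 mitotic genes, in 3 of the 6 risers and in 0 transport genes (6.95% of all promoters). In 9 of the 13 mitotic genes, among them 4 of the 6 risers, a TTTGAA match began within 30 bases of the start site. This distance was set after the matches were seen, and 3.14% of all promoters held such a match. A match describes the letters and is not evidence of binding.

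Promoter stretches are shown for the mitotic kinesins with the smallest p, a longer one for Kif11 and the site of a TTTGAA match for the next 3. Capitals mark TTTGAA or its reverse TTCAAA, and CCAAT or its reverse ATTGG, and each stretch is written 5′ to 3′ on the gene's strand. In GRCm38.p6 the stretches lie at chr19:37376232-37376381 (plus strand, Kif11), chr4:117178858-117178887 (minus strand, Kif2c), chr9:61946780-61946809 (minus strand, Kif23) and chr19:34922353-34922382 (plus strand, Kif20b).
Kif11: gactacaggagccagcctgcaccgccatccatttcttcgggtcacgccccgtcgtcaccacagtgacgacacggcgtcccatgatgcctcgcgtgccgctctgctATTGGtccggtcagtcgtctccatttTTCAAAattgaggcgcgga
Kif2c: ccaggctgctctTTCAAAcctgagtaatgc
Kif23: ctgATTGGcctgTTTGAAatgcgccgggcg
Kif20b: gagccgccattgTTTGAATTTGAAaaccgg

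In Kif11 the match to the homology region began at position -19 relative to the start site and the CCAAT box at -45. In Kif23 the corresponding positions were 3 and -7, so that the pair straddled the start site. Kif20b held adjoining matches at 8 and 14 and no CCAAT in the window. Kif2c had its only match at -103, and Kif14 at -228. Kif15 had matches at -234 and -19. Of the mitotic kinesins that did not pass the test, Kif4, Kif18b, Kif22, Kifc1 and Kifc5b also held a match within 30 bases of the start site. Kif18a and Kif2b held no TTTGAA in the window. No promoter was matched for Kif20a, the remaining mitotic kinesin.

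The mice were then compared within each group. Of the 6 risers, normoxia replicate 4 was the lowest normoxic mouse for 4 and hypoxia replicate 2 the highest hypoxic mouse for 4. The median difference of the 14 mitotic kinesins from their normoxic means was 0.27 to 0.47 in the hypoxic mice and -0.18 to 0.09 in the normoxic mice. For the 17 transport kinesins it was -0.01 to 0.06 in hypoxia and -0.09 to 0.06 in normoxia. All 6 hypoxic mice therefore stood above all normoxic mice in the mitotic median, and the groups overlapped in the transport median.

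**Figure D3:**
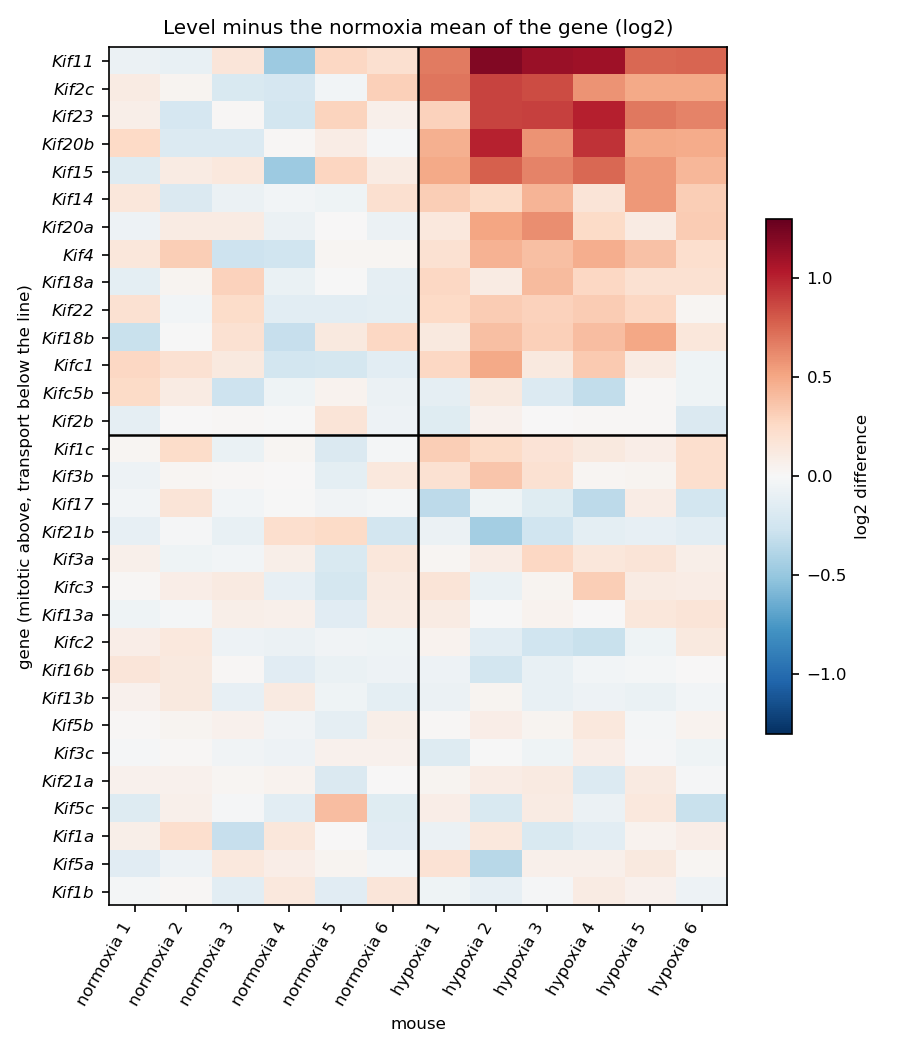
Each mouse's level minus the normoxic mean of the gene (log2) for the 14 mitotic kinesins (above the line) and the 17 transport kinesins (below it), with normoxia on the left and hypoxia on the right. The upper right block is red for most mitotic genes in all 6 hypoxic mice, and the median over the 17 transport genes stays between -0.09 and 0.06 in every mouse.

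Kif11 was set against the other 5 risers and against Mki67, a widely used marker of cycling cells, within each group of 6 mice, which gave 12 relations. With Mki67, Pearson's r was 0.96 in normoxia (exact permutation p=0.00694, adjusted p=0.05, Spearman's rho 0.94, exact permutation p=0.0167) and 0.73 in hypoxia (exact permutation p=0.144, rho 0.61, exact permutation p=0.222). Without the 2 mice farthest from the median of Kif11, r was 0.93 in each group. With Kif15, r was 0.92 in normoxia (exact permutation p=0.00833, adjusted p=0.05, rho 0.89, exact permutation p=0.0333) and 0.91 in hypoxia (exact permutation p=0.0333, adjusted p=0.08, rho 0.77, exact permutation p=0.103), and 0.58 and 0.84 without those 2 mice. With Kif14, r was 0.20 in normoxia (exact permutation p=0.699, rho 0.20, exact permutation p=0.714) and -0.41 in hypoxia (exact permutation p=0.428, rho -0.38, exact permutation p=0.478). For Kif2c, Kif23 and Kif20b the coefficients ranged from -0.07 to 0.86, with exact permutation p of 0.0236 or more. None of the 12 relations had an adjusted p below 0.05. The genes of a mouse share 1 array.

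**Figure D4:**
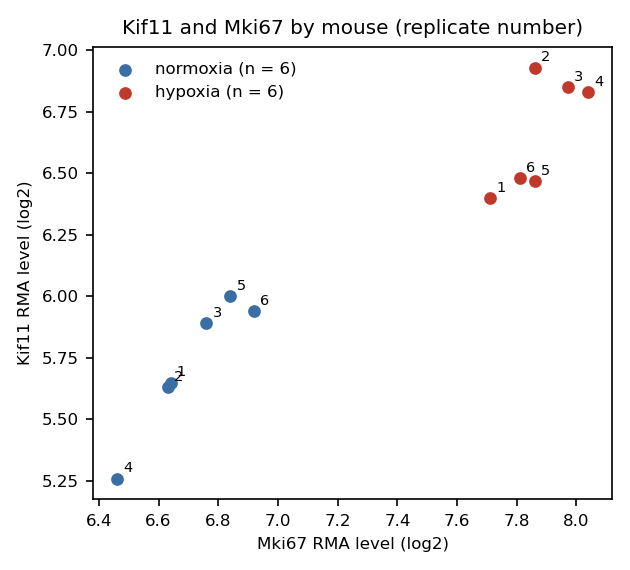
RMA levels (log2) of Kif11 against Mki67 in the same 12 mice, labelled with the replicate number, normoxia in blue and hypoxia in red. In normoxia Mki67 was 6.71 ± 0.17 and in hypoxia 7.88 ± 0.12 (mean ± SD, n=6 each), and the groups are separate on both axes.

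The 17 transport kinesins were described next. None passed in either direction in limma or in an analysis of variance, and 3 had an unadjusted p under 0.05 (17.6%, beside 19.5% of all genes). Kif1c, which carries vesicles between the Golgi apparatus, the endoplasmic reticulum and the cell margin, had levels of 7.75 to 8.18 in normoxia (median 7.95) and 8.03 to 8.26 in hypoxia (median 8.14). All 6 hypoxic mice lay above the normoxic median, and the log2 fold change was 0.20 (standard error 0.07, limma adjusted p=0.171). Kif3b, which with Kif3a forms the motor of transport into cilia, had levels of 7.28 to 7.55 in normoxia (median 7.43) and 7.44 to 7.77 in hypoxia (median 7.61), a log2 fold change of 0.17 (standard error 0.07, limma adjusted p=0.206). Kif3a itself had a log2 fold change of 0.13 (95% interval -0.01 to 0.27). For Kif3b as for Kif3a, all 6 hypoxic mice lay above the normoxic median.

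Kif17, a motor of dendritic vesicles in neurons, had levels of 5.33 to 5.55 in normoxia (median 5.35) and 5.04 to 5.48 in hypoxia (median 5.18), a log2 fold change of -0.17 (standard error 0.08, limma adjusted p=0.3). The highest value, of normoxia replicate 2, stood apart from the other normoxic mice. Kif21b, which restrains microtubule growth in neurons and lymphocytes, had a log2 fold change of -0.19 (95% interval -0.40 to 0.01), with all 6 hypoxic mice below the normoxic median. Kifc3, a minus-end motor of epithelial cells, had one of 0.11 (-0.07 to 0.28).

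The conventional kinesin heavy chains, which carry mitochondria and vesicles, did not pass the test. Kif5b, the widely expressed heavy chain, ranged from 9.50 to 9.69 in normoxia (median 9.64) and from 9.59 to 9.76 in hypoxia (median 9.66). Its log2 fold change of 0.05 had a 95% interval of -0.06 to 0.16, and a further cluster of the gene gave the same value of 0.05. For Kif5a and Kif5c, its neuronal relatives, the log2 fold changes were 0.02 (95% interval -0.17 to 0.21) and -0.04 (-0.27 to 0.20). Both lay below the median level of all clusters (5.91). Kif5a ranged from 4.86 to 5.15 in normoxia and from 4.65 to 5.20 in hypoxia. For Kif5c the ranges were 4.66 to 5.23 and 4.54 to 4.96. Kif1b, a carrier of mitochondria and synaptic vesicle precursors, had one of -0.01 (95% interval -0.16 to 0.14) and Kif1a one of -0.02. The rest of the transport list (Kif13a, Kif13b, Kif16b, Kif21a, Kif3c and Kifc2) lay between -0.10 and 0.08. Over the whole transport list, in the cluster taken for each gene, the 95% intervals reached at most 0.35 upward and -0.40 downward. A further cluster, shared by Kif3c and another gene, gave -0.25 (95% interval -0.48 to -0.01, limma adjusted p=0.281).

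The 6 kinesins of the cilium and of Hedgehog signaling had a median log2 fold change of 0.00, and none passed in limma or in an analysis of variance. Kif27, a relative of the Hedgehog regulator Kif7, was the only member of this list with an unadjusted p under 0.05 (16.7%, beside 19.5% of all genes). Its levels were 6.30 to 6.50 in normoxia (median 6.44) and 5.97 to 6.39 in hypoxia (median 6.20), with all 6 hypoxic mice below the normoxic median, and the log2 fold change was -0.21 (standard error 0.08, limma adjusted p=0.178). A further cluster of Kif27 gave -0.07. Kif24, which acts at centrioles to hold back cilium formation, had a log2 fold change of 0.11 (95% interval -0.02 to 0.25). Kif7 had one of 0.08 in the cluster with the highest mean and of 0.19 in a further cluster, and neither passed. Kif9 and Kif6, motors of motile cilia, had log2 fold changes of -0.03 and -0.01, and Kif19a, which trims cilia to length, one of 0.01. Of 10 markers of ciliated cells, none passed in limma or in an analysis of variance. An unadjusted p under 0.05 was found for 3 of the 10 (beside 19.5% of all genes), which differed in sign, with log2 fold changes of 0.29 for Foxj1, -0.28 for Hydin and -0.20 for Ccdc40. Of these markers, 4 lay above 0 and 6 below it, and their summed level, as log2 of the sum, ranged from 10.90 to 11.17 in normoxia and from 10.90 to 11.30 in hypoxia.

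The other 5 members did not pass either, with 0 calls by an analysis of variance and 2 with an unadjusted p under 0.05 (of 5 genes, beside 19.5% of all genes). Kif26a, an atypical kinesin without motor activity, had levels of 6.65 to 6.91 in normoxia (median 6.76) and 6.38 to 6.70 in hypoxia (median 6.64), a log2 fold change of -0.16 (standard error 0.07, limma adjusted p=0.253). Kif4-ps, annotated as a transcribed pseudogene of Kif4, had one of -0.22 (standard error 0.09, limma adjusted p=0.237), opposite in sign to Kif4, and its sequence likeness to Kif4 makes the source of its signal uncertain. Kif2a, which takes microtubule ends apart at spindle poles and in neurons, had one of 0.04 (95% interval -0.09 to 0.16), and Kif12 and Kif26b had -0.03 and -0.02. Kif2a was listed here and not with its relatives Kif2b and Kif2c, so the mitotic counts and median do not include it.

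The proteins that work with the kinesins were grouped by role. Of 15 partners of mitotic kinesins, 11 rose in hypoxia and 4 did not pass, with no falls and a median log2 fold change of 0.87. By the same test 3.90% of all genes rose and 2.14% fell. Mki67, which coats mitotic chromosomes, rose by 1.17, Ckap2l, a spindle protein, by 1.08, Nusap1, which bundles spindle microtubules, by 0.97 and Hmmr, a spindle assembly protein, by 0.87 on the log2 scale. In each of the 11 every hypoxic mouse lay above every normoxic mouse, which held for 3.55% of all genes. The following 4 were chosen after their values were seen. Cenpe, a kinesin of the kinetochore without a Kif symbol, rose by 0.87 (standard error 0.09, limma adjusted p=1.32e-04), Racgap1, which joins Kif23 in centralspindlin, by 0.59 and Prc1, which recruits Kif4 to the midzone, by 0.68. Cit, the citron kinase partner of Kif14, had a log2 fold change of 0.27 (standard error 0.08, limma adjusted p=0.0937), which passed only without hypoxia replicate 5.

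**Figure D5:**
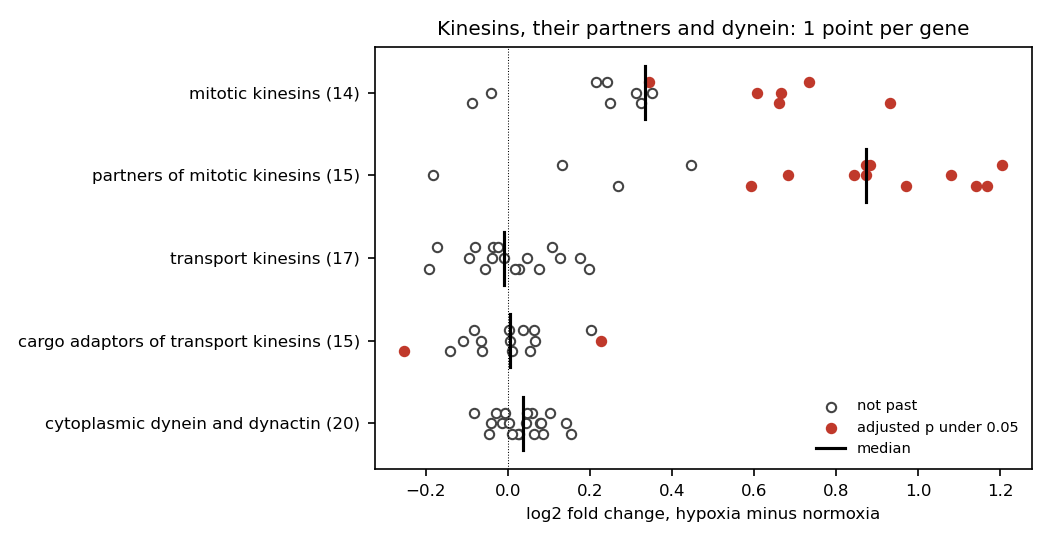
Log2 fold change (hypoxia minus normoxia) with 1 point for each gene in the mitotic kinesins (14), their partners (15), the transport kinesins (17), their cargo adaptors (15) and cytoplasmic dynein with dynactin (20), with a line at each median and filled points for an adjusted p under 0.05. The medians are 0.34, 0.87, -0.01, 0.01 and 0.04 in that order.

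Of 15 cargo adaptors of transport kinesins, 1 rose, 1 fell and 13 did not pass, with a median log2 fold change of 0.01. Among all genes the test called 3.90% higher and 2.14% lower. Trak2, which links kinesin to mitochondria, rose by 0.23 (standard error 0.06, limma adjusted p=0.047), and Mapk8ip3, a scaffold of axonal transport, fell, with a log2 fold change of -0.25 (standard error 0.07, limma adjusted p=0.0446). The call of Trak2 was lost without any 1 array other than hypoxia replicate 3, and the call of Mapk8ip3 without any 1 array other than hypoxia replicates 1 and 3 (0.20 to 0.27 and -0.28 to -0.23). Trak1, a relative of Trak2, had a log2 fold change of 0.20 (limma adjusted p=0.203) and the light chain Klc3 one of -0.14 (adjusted p=0.323). Of 20 subunits and regulators of cytoplasmic dynein and dynactin, the motor that runs toward the minus end, none passed in limma or in an analysis of variance and 2 had an unadjusted p under 0.05 (10.0%, beside 19.5% of all genes), with a median of 0.04. The 4 with the smallest p were Nde1 (0.16), Dctn3 (0.14), Dctn2 (0.10) and Pafah1b1 (0.08).

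Markers of some other cell types also differed between the same lungs, and their part in the rise of the mitotic kinesins was not tested. RMA levels hold no 0, so no marker can be called absent. For the counts below, 3.90% of all genes rose and 2.14% fell in limma. Of 6 measured markers of erythroid precursors, Trim10 and Slc4a1 rose, by 0.63 and 0.83 on the log2 scale, and 4 did not pass, with log2 fold changes of 0.22 for Tfrc, -0.16 for Klf1, -0.08 for Hemgn and -0.03 for Epb42. Thus 3 lay above 0 and 3 below it, and the summed level of the list, as log2 of the sum, was 8.71 to 8.89 in normoxia and 8.95 to 9.31 in hypoxia. Of 8 markers of neutrophil precursors, Ltf alone passed, with a log2 fold change of 2.20. The other 7 had log2 fold changes below 0 and did not pass, with a median over the list of -0.07. Camp had a log2 fold change of -0.68 and Ngp one of -0.57, with none of the hypoxic mice above the normoxic median in either, and the summed level was 10.82 to 11.67 in normoxia and 11.31 to 11.64 in hypoxia. Of 7 markers of T and B cells, Cd3g fell by 0.61 on the log2 scale, and the other 6 had log2 fold changes below 0 and did not pass, with summed levels of 10.51 to 11.33 in normoxia and 10.43 to 10.75 in hypoxia. Of 6 markers of neuroendocrine cells and neurons, the tubulin gene Tubb3 rose by 1.38, and 5 did not pass. Of the 6, 5 lay above 0 and 1, Chga (-0.07), below it. For Tubb3 and Uchl1 (0.29, limma adjusted p=0.0511) every hypoxic mouse lay above every normoxic mouse, which held for 3.55% of all genes. The summed level was 8.01 to 8.19 in normoxia and 8.25 to 8.44 in hypoxia. The calls of Slc4a1 and Cd3g were lost in an analysis of variance and in 8 and 6 of 12 runs without single arrays.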

How the data were processed

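Levels of transcript clusters were measured in 12 left lung lobes (6 mice in each group, an array each) on whole-transcript mouse arrays. Before deposition the authors ran RMA in Affymetrix Expression Console (version not stated here), which corrects background, normalizes between arrays and summarizes probes, so the deposited unit is a log2 level. Of 41345 rows, 190 control rows were left out. Symbols came from the platform annotation, with gene IDs updated through RefSeq (GRCm38.p6, used for names and promoters). Of the clusters, 23521 carry 1 symbol, 1820 several and 15814 none here.

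Groups were compared with limma 3.58.1 in R 4.3.3 (lmFit, eBayes, two-sided, no filter or minimum fold), with Benjamini-Hochberg adjustment over 41155 clusters. The methods name an anova, which is an alternative here. The fitting script was tested on simulated arrays. The members and lists were chosen with earlier results of these data known, so lists are given by counts and medians without a test. Named were all members past the threshold, all mitotic kinesins, the 6 largest changes of each other role, and the 4 partners with the smallest p in each list; further names fall outside this rule, and their values had been seen. Replicate numbers were not taken as pairs, since the labels do not tie them to a shared litter or batch. Alternatives were another test, a trend, array weights, further normalization, a filter on dim clusters, omission of each array in turn, a block for the replicate number, a threshold of 0.01 and the mean of a gene's clusters. Dixon's test (critical value 0.625) was used for single distant mice. Python 3.11.15 with scipy 1.17.1 was used for tables, correlations and plots. Protein sequences were not used here.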

Additional observations from a re-analysis of the deposited data

Results flagged for a closer look

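In 6 of 64 groups of 6 mice, over the named kinesins and Mki67, a single mouse lay apart from the other 5, where chance flags about 1 in 20 groups. Hypoxia replicate 2 was low for Kif12 (4.57, others 4.94 to 5.01) and for Kif26a (6.38, others 6.61 to 6.70). Normoxia replicate 2 was high for Kif17 (5.55, others 5.33 to 5.37) and normoxia replicate 3 for Kif18a (5.73, others 5.30 to 5.46). Hypoxia replicate 6 was low for Kif22 (5.76, others 5.99 to 6.07) and hypoxia replicate 5 for Kif9 (6.10, others 6.41 to 6.59). None of these genes passed the test.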

How the results depend on the processing

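The number of kinesins past the threshold was 6, all higher and all mitotic, and ranged from 3 to 7 over the alternatives. Restricting the test to clusters above the median level gave 3 (Kif11, Kif23 and Kif20b), since it kept 5 of 14 mitotic and 26 of 42 kinesins and left out Kif2c, Kif15 and Kif14; over the kept genes the median was 0.66 for the mitotic and 0.028 for the transport kinesins. Further normalization gave 7, the replicate block 5, a threshold of 0.01 5, and single arrays left out 5 to 6. Kif11, Kif2c, Kif23, Kif20b and Kif15 passed in each of the 12 runs without 1 array and with the replicate block (adjusted p=0.0226, 0.0255, 0.0431, 0.0431 and 0.0484). Same-numbered mice did not deviate together (correlations of -0.01 to 0.07). No kinesin was lower under any of these alternatives. The transport median was -0.038 to 0.018 without single arrays. The counts of cargo adaptors, 1 higher and 1 lower, became 0 and 0 with the replicate block and at 0.01, 0 lower with either further normalization, and 0 to 1 without single arrays; centring moved their median to 0.025. The cause of these shifts was not tested. Small changes can be missed with 6 mice a group, and no probe background signal was used here.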
